A study of Rattus norvegicus with 164 samples.

Results

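The libraries described here lie at opposite ends of the level of Dbp, a transcription factor gene driven by the circadian clock, in the prelimbic cortex of rats. Of 130 libraries with expression values, 112 were kept because the striatal dopamine receptor gene Drd2 stood at 6 or below and the inhibitory neuron gene Gad2 at 4.7 or above, in log2(CPM + 1), called log2 units here, where CPM is the count after scaling each library to a sum of 1000000. The kept libraries were ranked by Dbp. The 37 with the most Dbp are called high-Dbp, the 37 with the least low-Dbp, and the 38 between them enter no comparison of the sides. All animals were heterogeneous stock rats, an outbred population descended from several inbred strains, and poly(A) RNA was sequenced from tissue labelled prelimbic cortex, a part of the medial prefrontal cortex. The sources used here give no treatment, sex, age or time of tissue collection for either side, so the sides are groups by the level of a transcript and not by a recorded clock time. The labels divide the libraries by the kind of identifier and by a note on relabelling. High-Dbp libraries comprised 22 with a decimal number and 15 with a code that begins with E21DCD, and low-Dbp libraries comprised 15 and 22. That makeup did not differ beyond chance by Fisher's exact test (two-sided p = 0.163). For 11 libraries of the E21DCD series, of which 5 were high-Dbp, 4 low-Dbp and 2 between them, the labels record that the identifier was changed after a mismatch of genotypes. Without these libraries, an alternative chosen after the data were seen, 1339 genes were called in the comparison of the sides. The labels used here do not say which libraries share a litter or a day, so the p-values below measure the spread between libraries only.

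The circadian clock of mammalian cells is a loop of transcription. Bmal1 and Clock form a pair of factors that binds the E-box CACGTG and switches on the Per and Cry genes, whose proteins block the pair, and the nuclear receptor genes Nr1d1 and Nr1d2, whose proteins repress Bmal1 at elements that the activating ROR receptors also bind. Dbp is a direct E-box target and in turn drives genes with D-box elements, where Nfil3 acts as its repressor counterpart. In the rodent cortex the loop runs under the influence of the brain's central clock, of glucocorticoid hormone, and of temperature and activity.

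Dbp, Drd2 and Gad2 chose the libraries, and their values are given as a description. Dbp ran from 6.92 to 7.41 log2 units with a median of 7.03 in high-Dbp libraries, and from 6.33 to 6.70 with a median of 6.61 in low-Dbp libraries. Means were 7.05 ± 0.10 and 6.58 ± 0.10 (SD, n = 37 each), a ratio of 1.38. At the limits, the last high-Dbp library had 6.918 and the next one outside 6.913, and the last low-Dbp library had 6.696 and the next one outside 6.698. Both limits thus fall inside a continuous run of values. In the excluded libraries Dbp stood at 7.37 to 7.81 in the 11 with Drd2 above 6 and at 6.98 to 7.46 in the 7 with Gad2 under 4.7.

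Summed counts, in units of 1000000, were 28.5 ± 9.04 in high-Dbp and 26.5 ± 6.67 in low-Dbp libraries (SD, permutation p = 0.288), and genes above 0 numbered 24453 ± 731 and 24126 ± 575 (permutation p = 0.036). Markers of cortex were present on both sides. The list of glutamatergic neuron genes had a median library mean of 7.17 in high-Dbp and 7.15 in low-Dbp libraries. Myelin was less even. The mean of 14 oligodendrocyte genes ran from 5.81 to 8.94 log2 units in high-Dbp libraries and from 5.09 to 7.69 in low-Dbp libraries. In high-Dbp libraries 3 lay above 0.2 on the first principal component of the kept libraries, which held 16.9% of the variance and was computed without clock genes, and in low-Dbp libraries none did. Genes of the other lists below, such as stress, oligodendrocyte and ribosomal protein genes, entered that component. In bulk tissue, fewer cells of a type and less RNA per cell cannot be told apart.

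Across all genes, limma called 1194 of 15131 genes at an adjusted p under 0.05, which is 7.89%. Of these 689 were higher in high-Dbp libraries (4.55%) and 505 were lower (3.34%). In 0 genes, Dbp aside, did the sides fail to overlap, and the median difference over all genes was 0.0051. When Dbp was ranked on median-of-ratios scaled values, 374 genes passed as higher and 472 as lower, a different balance of directions. With a covariate, 3.38% of genes were called for the identifier series, 1.34% for the first principal component and 1.63% for the mean of the oligodendrocyte genes. Without the 3 libraries above 0.2 on the first component, 494 genes were called.

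The promoters of the clock genes with the largest differences hold letters that clock factors are known to bind, and are shown because the genes moved in opposite directions. They run from 250 bases before to 50 bases after the gene start in the GRCr8 RefSeq table, 5′ to 3′, with the matches in capitals. For Ciart (chr2:186112197-186112496, minus strand) and Bhlhe41 (chr4:180569306-180569605, minus strand) the capitals mark CACGTG, and for Bmal1 (chr1:176766078-176766377, plus strand) they mark the ROR response element, spelled here as AA, any 1 base and TAGGTCA, which ROR and Nr1d proteins bind.
Ciart: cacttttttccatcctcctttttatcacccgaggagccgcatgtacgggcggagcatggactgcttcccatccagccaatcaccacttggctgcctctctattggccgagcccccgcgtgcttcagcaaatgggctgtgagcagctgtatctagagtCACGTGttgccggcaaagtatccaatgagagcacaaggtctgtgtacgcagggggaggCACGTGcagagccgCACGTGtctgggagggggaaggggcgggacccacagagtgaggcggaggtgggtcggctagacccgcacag
Bhlhe41: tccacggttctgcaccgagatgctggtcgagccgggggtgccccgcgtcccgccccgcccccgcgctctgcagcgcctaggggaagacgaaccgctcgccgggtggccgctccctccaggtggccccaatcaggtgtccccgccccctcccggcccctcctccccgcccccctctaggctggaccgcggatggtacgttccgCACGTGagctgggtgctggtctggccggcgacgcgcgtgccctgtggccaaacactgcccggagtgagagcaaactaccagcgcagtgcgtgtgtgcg
Bmal1: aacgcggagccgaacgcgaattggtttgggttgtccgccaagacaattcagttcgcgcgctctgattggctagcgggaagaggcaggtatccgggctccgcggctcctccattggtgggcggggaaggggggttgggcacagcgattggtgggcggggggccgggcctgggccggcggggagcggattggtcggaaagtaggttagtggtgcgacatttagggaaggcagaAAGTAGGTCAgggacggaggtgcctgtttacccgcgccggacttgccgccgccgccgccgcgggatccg
Both strands were searched. CACGTG stood in 6.42% of 33469 promoters of this length and in 6 of 24 promoters found for the 28 clock genes tested, namely those of Nr1d1, Ciart, Bhlhe40, Bhlhe41, Tef and Gsk3b. Ciart held 3 matches, and 3 or more stood in 0.0568% of all promoters. The ROR response element stood in 0.245% of all promoters and, among the clock genes, in that of Bmal1. A match is a run of letters and not a shown binding site.

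Of 10 repressors of the clock loop, 5 passed the threshold, all of them higher in high-Dbp libraries, against 4.55% of all genes. The median difference of the list was 0.13, against 0.0051 over all genes. Ciart, whose product represses the activator pair and is also named Chrono, differed most. It ran from 2.99 to 4.00 log2 units with a median of 3.63 in high-Dbp libraries, and from 2.75 to 3.55 with a median of 3.22 in low-Dbp libraries. Of the 37 high-Dbp libraries 26 lay above every low-Dbp library, and 36 lay above the low-Dbp median. The difference was 0.43 ± 0.047 (SE), a ratio of 1.35 (adjusted p = 1.07e-09). Bhlhe41, a basic helix-loop-helix repressor that competes for E-boxes, ran from 5.89 to 6.47 with a median of 6.19 in high-Dbp libraries, and from 5.56 to 6.24 with a median of 5.89 in low-Dbp libraries. Here 36 of 37 high-Dbp libraries exceeded the low-Dbp median, with some overlap of the ranges. The difference was 0.28 ± 0.034 (adjusted p = 2.45e-08). Its relative Bhlhe40 had equal means of 6.96 on both sides (adjusted p = 0.997).

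**Figure D1:**
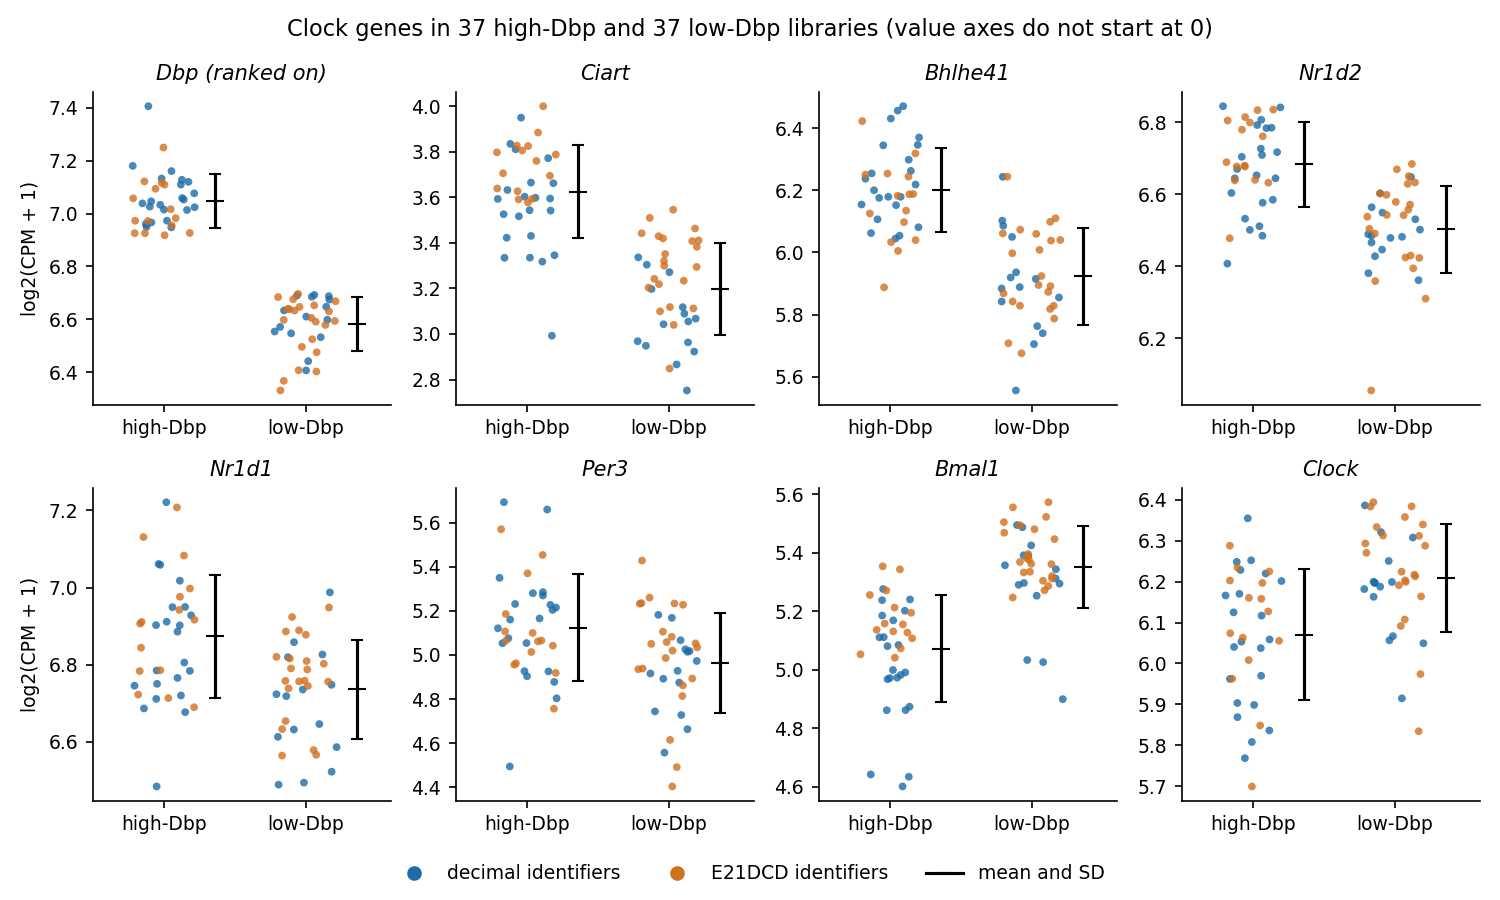
Levels of Dbp, on which libraries were ranked, and of 7 other clock genes in 37 high-Dbp (left) and 37 low-Dbp libraries (right), in log2(CPM + 1); each point is a library, coloured by identifier series, with the mean and SD beside it. Ciart, Bhlhe41, Nr1d2, Nr1d1 and Per3 sit higher in high-Dbp libraries and Bmal1 and Clock lower, with overlap in each of these 7.

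The nuclear receptor genes Nr1d2 and Nr1d1 were both higher, by less than Ciart. Nr1d2 (REV-ERB beta) ran from 6.41 to 6.84 with a median of 6.68 in high-Dbp libraries, and from 6.06 to 6.68 with a median of 6.50 in low-Dbp libraries. The difference was 0.18 ± 0.028 (adjusted p = 1.49e-05), and 18 high-Dbp libraries lay above every low-Dbp library. Nr1d1 (REV-ERB alpha), given with the rule as a marker of the clock state, had means of 6.87 ± 0.16 in high-Dbp and 6.74 ± 0.13 in low-Dbp libraries (SD), a difference of 0.14 ± 0.033 (adjusted p = 0.00924). Per3, the other marker given with the rule, had means of 5.12 ± 0.24 and 4.97 ± 0.23, a difference of 0.16 ± 0.053 that passed narrowly (adjusted p = 0.0489). Per3 lost the call with the identifier series (adjusted p = 0.0721) or the oligodendrocyte mean (adjusted p = 0.126) as a covariate and without the relabelled libraries (adjusted p = 0.0562). Nr1d1 and Nr1d2 were called with each of the covariates tried. Within a single series Nr1d1 was not called, at 0.16 in the decimal (adjusted p = 0.377) and 0.14 in the E21DCD series (adjusted p = 0.110). Per3 was not called there either, at 0.22 in the decimal (adjusted p = 0.424) and 0.11 in the E21DCD series (adjusted p = 0.531). Nr1d2 was called in the E21DCD series (adjusted p = 0.0163) and not in the decimal series (adjusted p = 0.0924). The period genes that respond most to acute stimuli did not pass. Per1 differed by 0.12 ± 0.079 (adjusted p = 0.323) and Per2 by 0.026 ± 0.055 (adjusted p = 0.809). Cry1 missed narrowly at 0.093 ± 0.031 (adjusted p = 0.0502), and Cry2 differed by 0.0057 ± 0.024 (adjusted p = 0.913).

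Of 6 activators and ROR factors, Bmal1 and Clock passed, both lower in high-Dbp libraries, against 3.34% of all genes. Bmal1 ran from 4.60 to 5.35 log2 units with a median of 5.11 in high-Dbp libraries, and from 4.90 to 5.57 with a median of 5.36 in low-Dbp libraries. Of the high-Dbp libraries 0 of 37 exceeded the low-Dbp median, and 20 low-Dbp libraries lay above every high-Dbp library. The difference was -0.28 ± 0.038, a ratio of 0.824 (adjusted p = 5.51e-07). Clock, the partner of Bmal1, had means of 6.07 ± 0.16 in high-Dbp and 6.21 ± 0.13 in low-Dbp libraries, a difference of -0.14 ± 0.034 (adjusted p = 0.00888). With the first principal component as a covariate Clock was not called (adjusted p = 0.117), and Bmal1 was (adjusted p = 1.34e-05). Neither series alone called Clock, at -0.12 in the decimal (adjusted p = 0.523) and -0.14 in the E21DCD series (adjusted p = 0.135). Npas2, which can stand in for Clock in the forebrain, differed by -0.017 ± 0.024 (adjusted p = 0.680). The receptor genes Rora and Rorb, whose proteins activate Bmal1, differed by 0.071 ± 0.053 and -0.13 ± 0.074, and Bmal2 by -0.044 ± 0.043, none past the threshold.

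Among the basic leucine zipper factors that share D-box elements with Dbp, only Nfil3 passed of the 3 tested, as lower, against 3.34% of all genes. Nfil3 ran from 2.89 to 3.99 with a median of 3.44 in high-Dbp libraries, and from 2.78 to 4.06 with a median of 3.73 in low-Dbp libraries. High-Dbp libraries were mostly in the lower part of a shared range, with 5 of 37 above the low-Dbp median. The difference was -0.20 ± 0.059 (adjusted p = 0.0225). Nfil3 was not called with the oligodendrocyte mean (adjusted p = 0.0859) or the first component (adjusted p = 0.146) as a covariate. Neither series alone called it, at -0.28 in the decimal (adjusted p = 0.319) and -0.12 in the E21DCD series (adjusted p = 0.562). Dbp's nearest relatives did not pass in the comparison without covariates. Hlf differed by 0.10 ± 0.044 (adjusted p = 0.135) and Tef by -0.014 ± 0.031 (adjusted p = 0.816). Hlf was called, as higher, with the first component as a covariate (0.16, adjusted p = 0.0346) and with ranking on median-of-ratios scaled values (0.14, adjusted p = 0.0382).

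Of 9 kinases, ubiquitin ligases and other regulators of clock protein turnover, 2 were called, both lower in high-Dbp libraries, against 3.34% of all genes. They were the paralogous ligase genes Btrc and Fbxw11, whose products direct phosphorylated Per proteins to the proteasome. Btrc differed by -0.14 ± 0.038 (adjusted p = 0.0154) and Fbxw11 by -0.090 ± 0.022 (adjusted p = 0.00856). Neither was called with the oligodendrocyte mean as a covariate, at adjusted p = 0.101 for Btrc and 0.0642 for Fbxw11. The kinase genes Csnk1d, Csnk1e and Gsk3b, the Cry ligase gene Fbxl21, the deubiquitinase gene Usp2, and Timeless lay between -0.072 and 0.075, none past the threshold. Usp2, at 0.075 (adjusted p = 0.121), was called as higher with the identifier series (adjusted p = 0.0433), the oligodendrocyte mean (adjusted p = 0.0313) or the first component (adjusted p = 0.0146) as a covariate.

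**Figure D2:**
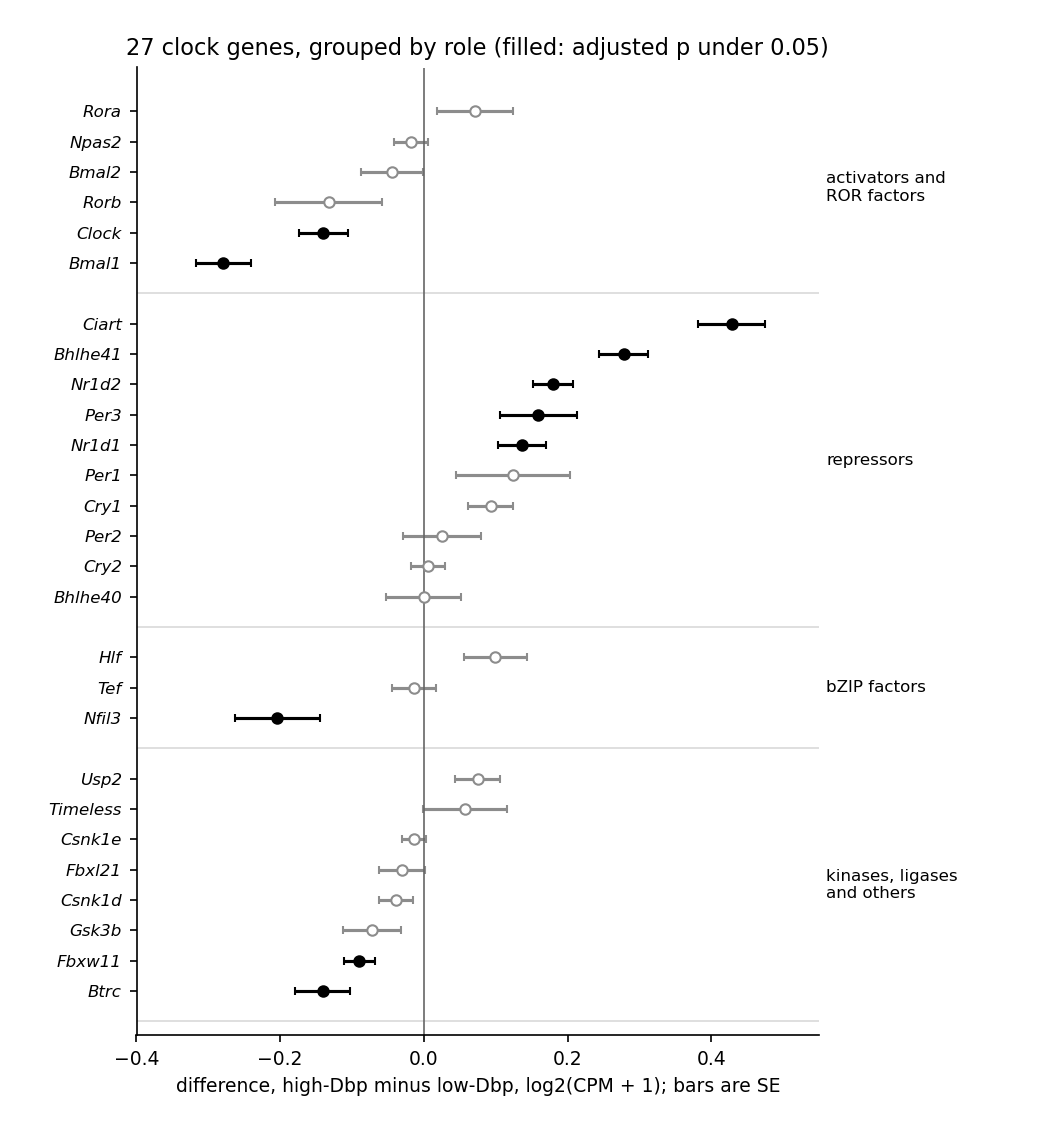
Difference in log2(CPM + 1), high-Dbp minus low-Dbp libraries, for 27 of the 28 clock genes tested, grouped by role; bars are SE and filled points have an adjusted p under 0.05. The 5 called repressors lie right of 0, and Bmal1, Clock, Nfil3, Btrc and Fbxw11 lie left of it.

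Of 19 known outputs of the clock, 3 passed as higher and 1 as lower, against 4.55% and 3.34% of all genes, and the list median was 0.0074. Por, which supplies electrons to cytochrome P450 enzymes, had means of 6.28 ± 0.09 in high-Dbp and 6.20 ± 0.09 in low-Dbp libraries (adjusted p = 0.0137). Slc2a1, the glucose transporter of the blood-brain barrier, differed by 0.19 ± 0.052 (adjusted p = 0.0153), and Tsc22d3, a target of both the clock and glucocorticoids, by 0.16 ± 0.050 (adjusted p = 0.0328). Dtx4, a regulator of Notch signalling, differed by -0.095 ± 0.031 (adjusted p = 0.0401). With the first component or the oligodendrocyte mean as a covariate 0 of these 4 were called. Nampt, Noct, Wee1, Alas1 and Klf10 lay between -0.077 and 0.0088 without passing. Avp and Prok2, outputs of the central clock, were too low to test, and Vip differed by -0.073 ± 0.051 (adjusted p = 0.368).

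Metallothionein genes were higher in high-Dbp libraries. Mt1, a metal-binding protein gene induced by metals and by glucocorticoids, ran from 3.12 to 4.26 log2 units with a median of 3.56 in high-Dbp libraries, and from 2.47 to 3.65 with a median of 3.14 in low-Dbp libraries. Of the high-Dbp libraries 36 of 37 exceeded the low-Dbp median, and 18 low-Dbp libraries lay below every high-Dbp library. The difference was 0.52 ± 0.065, a ratio of 1.43 (adjusted p = 6.64e-08). Mt2A, its paralogue, had means of 4.48 ± 0.37 and 4.05 ± 0.26, a difference of 0.43 ± 0.072 (adjusted p = 9.28e-05). The promoter of Mt1 (GRCr8 chr19:10832926-10833225, minus strand) is shown with TGCNCNC in capitals, where N is any base. This is a loose spelling of the core of the metal response element, and the promoter held 7 matches to it.
Mt1: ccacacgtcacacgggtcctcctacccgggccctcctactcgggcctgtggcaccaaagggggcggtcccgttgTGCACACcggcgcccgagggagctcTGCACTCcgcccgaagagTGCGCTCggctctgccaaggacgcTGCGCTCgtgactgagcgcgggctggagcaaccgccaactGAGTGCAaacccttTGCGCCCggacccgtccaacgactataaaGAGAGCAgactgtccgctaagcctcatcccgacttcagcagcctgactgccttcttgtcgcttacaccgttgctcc
This loose spelling stood at least 7 times in 0.108% of all promoters and at least once in 49.6%. The promoter of Mt2A held 5.

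Of 20 glucocorticoid-responsive genes tested, the metallothioneins included, 5 passed, all higher, against 4.55% of all genes: Mt1, Mt2A, Tsc22d3, Arrdc2 and Plekhf1, with a list median of 0.11 against 0.0051 over all genes. Arrdc2 differed by 0.21 ± 0.067 (adjusted p = 0.0415) and Plekhf1 by 0.33 ± 0.093 (adjusted p = 0.0197). With the identifier series, the first component or the oligodendrocyte mean as a covariate, 2 of the 5 were called each time, which were Mt1 and Mt2A. Other members of the list did not pass, among them Fkbp5, Sgk1 and Zbtb16. Fkbp5 differed by 0.080 ± 0.046 (adjusted p = 0.262), Sgk1 by 0.11 ± 0.11 (adjusted p = 0.571), and Zbtb16 by -0.00074 ± 0.054 (adjusted p = 0.995). Of 7 genes of glucocorticoid receptors, their chaperone, the activating enzyme and the Crh system, 0 passed. The glucocorticoid receptor gene Nr3c1 differed by -0.050 ± 0.028 and the mineralocorticoid receptor gene Nr3c2 by -0.052 ± 0.033.

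Both cold-inducible RNA-binding protein genes were called as higher in high-Dbp libraries, against 4.55% of all genes. Rbm3, which rises when body or brain temperature falls, ran from 4.49 to 5.95 log2 units with a median of 5.31 in high-Dbp libraries, and from 4.11 to 5.49 with a median of 4.86 in low-Dbp libraries. All but 1 of the 37 high-Dbp libraries exceeded the low-Dbp median. The difference was 0.45 ± 0.062, a ratio of 1.37 (adjusted p = 7.21e-07). Cirbp, the related protein that binds clock transcripts, had means of 5.37 ± 0.13 and 5.14 ± 0.15, a difference of 0.23 ± 0.033 (adjusted p = 2.57e-06). Here 17 high-Dbp libraries lay above every low-Dbp library. Both genes were called with each covariate and in each identifier series by itself.

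Of 20 heat shock genes, 6 passed, all lower in high-Dbp libraries: Hsph1, Hspa8, Hspa4l, Hspa4, Stip1 and Chordc1, against 3.34% of all genes, and the list median was -0.065. Hsph1, a nucleotide exchange factor of the Hsp70 machine, ran from 7.61 to 8.28 with a median of 8.13 in high-Dbp libraries, and from 7.99 to 8.56 with a median of 8.25 in low-Dbp libraries. A single high-Dbp library of the 37 exceeded the low-Dbp median, and 14 low-Dbp libraries lay above every high-Dbp library. The difference was -0.15 ± 0.031 (adjusted p = 0.00175). The constitutive chaperone gene Hspa8 had means of 10.93 ± 0.14 and 11.03 ± 0.11 (adjusted p = 0.0423). With the oligodendrocyte mean as a covariate 1 of the 6, Hsph1, was called, and with the identifier series 3 were. The strongly inducible genes Hspa1a and Hspa1b differed by -0.085 ± 0.088 and -0.20 ± 0.086 without passing.

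Of 18 genes of endoplasmic reticulum stress, 4 were lower in high-Dbp libraries and 1 was higher, against 3.34% and 4.55% of all genes, with a list median of -0.056. Hspa5 (BiP), the main chaperone of that compartment, ran from 7.69 to 8.29 with a median of 7.88 in high-Dbp libraries, and from 7.73 to 8.46 with a median of 8.05 in low-Dbp libraries. A single high-Dbp library exceeded the low-Dbp median. The difference was -0.18 ± 0.030, a ratio of 0.886 (adjusted p = 0.000144). The chaperone genes Hsp90b1, Calr and Pdia6 differed by -0.10 ± 0.026, -0.11 ± 0.028 and -0.086 ± 0.028 (adjusted p = 0.0108, 0.0137 and 0.0449). Herpud1, a part of the degradation complex of that compartment, was higher by 0.12 ± 0.030 (adjusted p = 0.0130). The transcription factor genes of the stress response proper did not pass, with Xbp1 at -0.081 ± 0.033, Atf4 at -0.0083 ± 0.036 and Ddit3 at 0.029 ± 0.044. With the first component as a covariate 2 of the 5 called genes, Hspa5 and Calr, were called.

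The promoters of Hsph1 (GRCr8 chr12:10427118-10427417, plus strand) and Hspa5 (GRCr8 chr3:38452766-38453065, plus strand) are shown for the chaperone genes that differed most clearly, with matches in capitals. For Hsph1 they mark the heat shock element, GAA, TTC and GAA with any 2 bases between the parts, read on the minus strand. For Hspa5 they mark the endoplasmic reticulum stress element, CCAAT and CCACG with any 9 bases between them. The Hsph1 promoter also holds the E-box CACGTG, left in lower case, which stood in 6.42% of all promoters.
Hsph1: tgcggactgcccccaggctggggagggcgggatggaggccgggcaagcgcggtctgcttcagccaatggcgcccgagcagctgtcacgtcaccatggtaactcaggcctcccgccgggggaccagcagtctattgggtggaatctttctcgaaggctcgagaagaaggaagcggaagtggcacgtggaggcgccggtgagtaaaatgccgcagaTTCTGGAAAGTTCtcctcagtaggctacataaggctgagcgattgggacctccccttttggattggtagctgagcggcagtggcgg
Hspa5: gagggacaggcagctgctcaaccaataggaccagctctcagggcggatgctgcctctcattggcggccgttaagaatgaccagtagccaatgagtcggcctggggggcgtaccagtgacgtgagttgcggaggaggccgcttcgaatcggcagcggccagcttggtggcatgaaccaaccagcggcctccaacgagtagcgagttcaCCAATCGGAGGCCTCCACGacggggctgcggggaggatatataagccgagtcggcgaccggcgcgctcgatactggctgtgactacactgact
The heat shock element stood in 6 of 16 promoters found for the heat shock list, those of Hsph1, Hspa8, Dnaja1, Hspd1, Hspe1 and Chordc1, and in 0.798% of all promoters. Of these 6 genes Hsph1, Hspa8 and Chordc1 were among the called ones, and Dnaja1, Hspd1 and Hspe1 were not. The called genes Hspa4, Hspa4l and Stip1 were not among those with a match, and a link between match and call was not tested. The promoters of Rbm3 and Cirbp held none. The endoplasmic reticulum stress element stood in 5 of 15 promoters found for its list, those of Hspa5, Xbp1, Hsp90b1, Creld2 and Calr, and in 0.0657% of all promoters.

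Of 21 immediate early genes, which neurons switch on soon after activity, 4 were lower in high-Dbp libraries and 0 higher, against 3.34% and 4.55% of all genes, with a list median of -0.17. Arc, which regulates synaptic receptors, ran from 4.86 to 8.20 log2 units with a median of 6.81 in high-Dbp libraries, and from 5.78 to 8.49 with a median of 7.55 in low-Dbp libraries. The ranges overlapped over most of their width, and 7 of 37 high-Dbp libraries exceeded the low-Dbp median. The difference was -0.61 ± 0.18, a ratio of 0.655 (adjusted p = 0.0250). Npas4, Fos and Dusp6 differed by -0.51 ± 0.16, -0.44 ± 0.14 and -0.27 ± 0.070 (adjusted p = 0.0411, 0.0401 and 0.0121). The differences were larger in the decimal series. There Arc differed by -1.15 and Fos by -0.75, and in the E21DCD series they differed by -0.039 and -0.030, though the difference between the series was not called for either (adjusted p = 0.998). With the identifier series as a covariate Dusp6 alone of the 4 was called, and with the first component or the oligodendrocyte mean 0 of the 4 were. Dusp6 too differed mainly in the decimal series, by -0.47 (adjusted p = 0.0244), against -0.011 in the E21DCD series (adjusted p = 0.969). For Dusp6 the difference between the series was not called (adjusted p = 0.998). Of 9 oxidative stress genes 0 were called, with Hmox1 at 0.13 ± 0.057 (adjusted p = 0.129). Of 9 hypoxia genes, Slc2a1 and Pdk1 were higher, and neither was called with the identifier series, the first component or the oligodendrocyte mean as a covariate. Vegfa differed by 0.0062 ± 0.037 (adjusted p = 0.939).

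**Figure D3:**
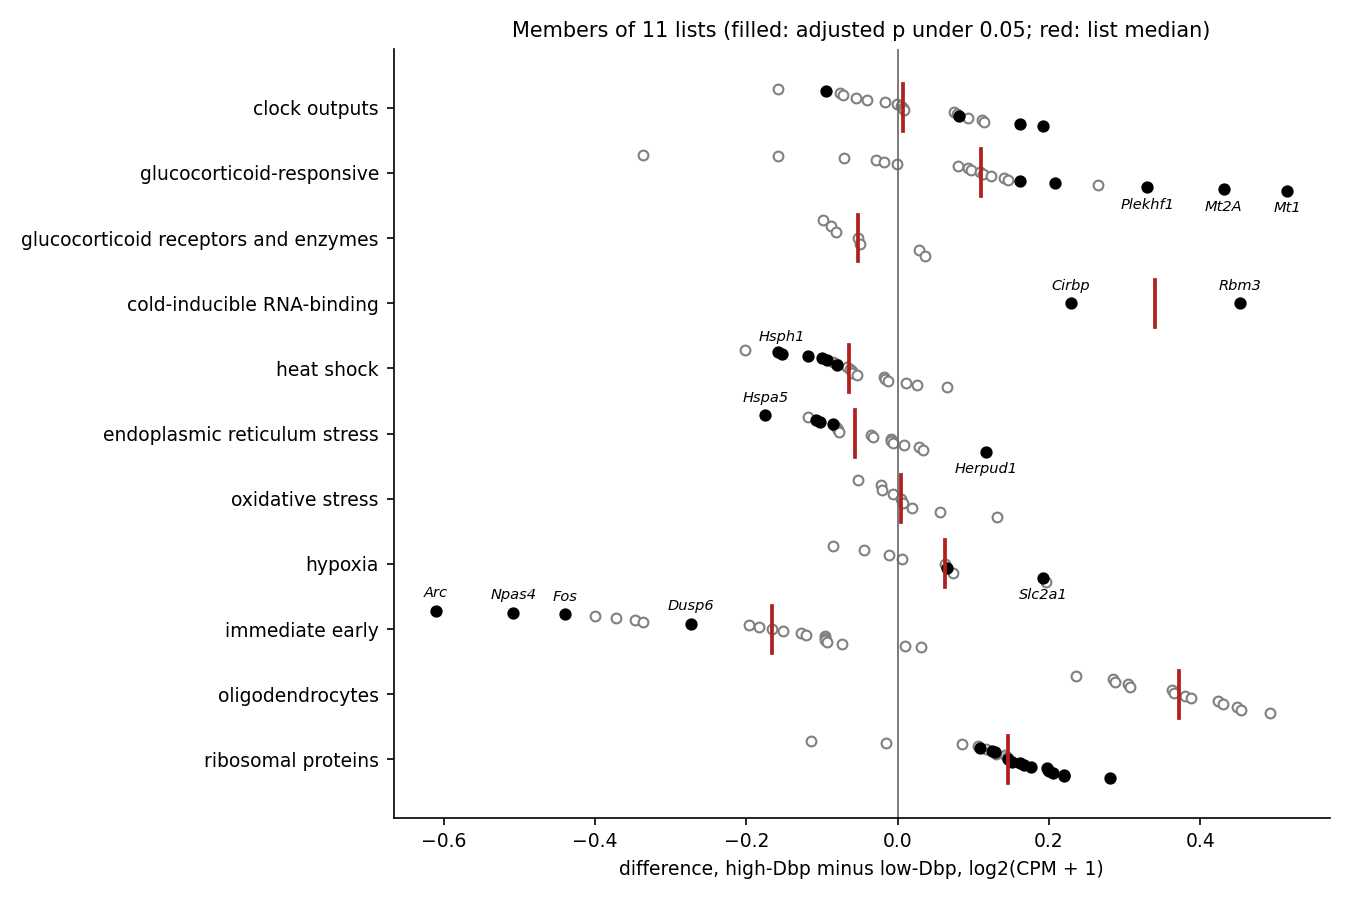
Difference in log2(CPM + 1), high-Dbp minus low-Dbp, of each tested member of 11 lists; filled points have an adjusted p under 0.05 and the red bar is the list median. Mt1, Mt2A, Rbm3 and Cirbp lie to the right, Arc, Npas4 and Fos to the left, and all 14 oligodendrocyte genes lie right of 0 without passing.

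Differences of all 14 oligodendrocyte genes lay above 0, with a median of 0.37, and 0 of them passed. Mbp, the major myelin protein gene, had means of 10.87 ± 0.97 and 10.41 ± 0.69, a difference of 0.45 ± 0.19 (adjusted p = 0.116). As higher in high-Dbp libraries 4.55% of all genes were called. Of 10 precursor genes Cspg4 and Neu4 were higher, of 14 microglial genes 2, Tyrobp among them, and of 12 astrocyte genes Gfap, at 0.27 ± 0.085 (adjusted p = 0.0342), and 0 of these 5 were called with the identifier series, the first component or the oligodendrocyte mean as a covariate. Of 24 ribosomal protein genes 15 were higher and 0 lower, with a median of 0.15, and of 20 nuclear genes of oxidative phosphorylation 6 were higher. With the first component or the oligodendrocyte mean as a covariate 0 of the 15 ribosomal protein genes and 0 of the 6 of oxidative phosphorylation were called. Genes of both lists entered the first component, so the loss of calls with that covariate is no independent check. With ranking on median-of-ratios scaled values 4 of the ribosomal protein list were higher. Lists for glutamatergic neurons, layers of the cortex, interneurons, striatal neurons, endothelium, meninges, blood and choroid plexus had 0 called members. The striatal neuron list still had a median difference of 0.11, with 9 of 11 genes above 0 and 2 below. Its mean reached 5.59 log2 units in high-Dbp and 4.71 in low-Dbp libraries, with medians of 4.28 and 4.27. Blood genes lay above 0 in 7 of 7 cases and choroid plexus genes in 4 of 5. Of 10 reference genes 1 was higher, B2m, and 1 was lower, against 4.55% and 3.34% of all genes. The part of glia and of the first component in the clock and stress results was not tested beyond the covariates given beside each gene.

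Beyond the lists, the largest rises, taken where the mean reached 3 or more, were Tpt1l3 (0.57 ± 0.15, adjusted p = 0.0142), Mt1, Ppp1r14a (0.50 ± 0.14), Rbm3, Acer2 (0.44 ± 0.10, adjusted p = 0.00724), Mt2A and Ciart, followed by Prr18, Rpl36, Tnfrsf11a, Cd9 and Cnksr3 at 0.39 to 0.31. Acer2 encodes an alkaline ceramidase of the Golgi. Tpt1l3 and Rpl36 belong to families with near-identical copies, between which reads may be split, so their values are uncertain. The largest falls were Arc, Npas4, Fos, Adamts2 (-0.35 ± 0.083, adjusted p = 0.00724), Kctd16, Rasl11a, Trabd2b (-0.33 ± 0.068, adjusted p = 0.00247), Cd93 (-0.29 ± 0.058, adjusted p = 0.00164), Trib1, Bmal1, Thsd4 and Dusp6. Clock genes and genes named above for stress made up 4 of the 12 rises and 5 of the 12 falls. With the first component as a covariate, Mt1, Rbm3, Mt2A and Ciart alone were called among the 12 rises. Among the 12 falls, Trabd2b, Cd93 and Bmal1 alone were. With the oligodendrocyte mean, Ppp1r14a shrank to 0.18 and was still called (adjusted p = 0.0158). Prr18 and Cd9 shrank to 0.093 and 0.077 and were not called (adjusted p = 0.271 and 0.273). Cd93, an endothelial surface protein gene, ran from 3.09 to 3.97 in high-Dbp libraries and from 3.37 to 4.18 in low-Dbp libraries, and 12 low-Dbp libraries lay above every high-Dbp library.

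The differences were next followed within each identifier series and with library-wide measures held fixed. In the decimal series alone, with 22 high-Dbp and 15 low-Dbp libraries, 9 of 15143 genes were called (0.0594%), and in the E21DCD series alone, with 15 and 22, 43 of 15123 (0.284%). Ciart, Bhlhe41, Rbm3, Cirbp and Mt1 were called in each, all higher. Ciart differed by 0.49 in the decimal series (adjusted p = 6.83e-05) and by 0.45 in the E21DCD series (adjusted p = 1.94e-06). Bmal1 differed by -0.28 (adjusted p = 0.0626) and -0.22 (adjusted p = 0.000591). Of the 28 clock genes 2 were called in the decimal series alone and 5 in the E21DCD series alone. The effect of side differed between the series for 0 of 15131 genes (0%) by limma's interaction term, with 541 at an unadjusted p under 0.05. With the identifier series, the summed count, the oligodendrocyte mean and the first component each entered in turn, 112 genes were called every time, 65 higher and 47 lower. Among them were Ciart, Bhlhe41, Nr1d1, Nr1d2, Bmal1, Mt1, Mt2A, Rbm3, Cirbp, Hspa5 and Hsph1.

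**Figure D4:**
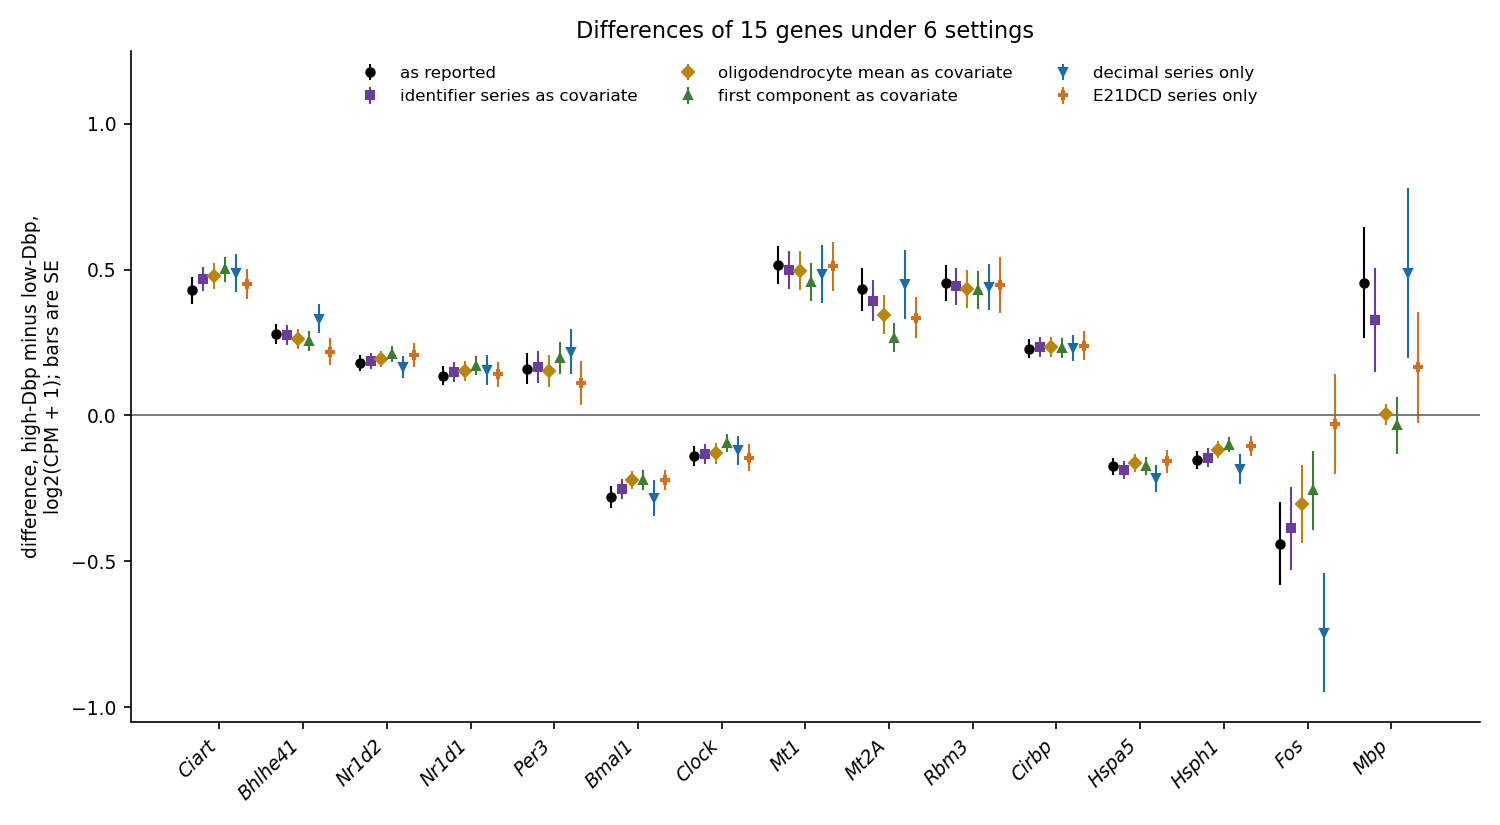
Difference in log2(CPM + 1), high-Dbp minus low-Dbp, of 15 genes as reported, with each of 3 covariates, and within each identifier series; bars are SE. Ciart, Bhlhe41, Mt1, Rbm3 and Cirbp lie above 0 and Bmal1, Hspa5 and Hsph1 below it throughout, whereas Fos is near 0 in the E21DCD series and Mbp with either the oligodendrocyte mean or the first component as a covariate. Mbp is itself an oligodendrocyte gene that enters both of these covariates, so its fall with them is in part built in.

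Libraries outside the sides gave a separate look at the same genes, as correlations with Dbp over 28 clock genes in each of 3 sets, with p from permutations adjusted over the 28. In the middle 38 libraries, where Dbp spans only 6.70 to 6.91, 0 clock genes passed, with 2 at an unadjusted p under 0.05. Bhlhe41 had the highest Pearson r at 0.41 (permutation p = 0.0111, adjusted p = 0.312), with Spearman's rho at 0.37 (adjusted p = 0.492). Its r was 0.43 without the 2 libraries farthest from the median of Dbp, 0.30 in 19 decimal and 0.49 in 19 E21DCD libraries. Ciart followed at r = 0.34 (permutation p = 0.0394, adjusted p = 0.551). Bmal1 had r = -0.097 there.

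In the 11 libraries with Drd2 above 6, all of the decimal series and rich in striatal transcripts, Ciart passed with r = 0.84 (permutation p = 0.0011, adjusted p = 0.0311) and rho = 0.90 (adjusted p = 0.0115). Without the 2 libraries farthest from the median of Dbp its r was 0.69. Nr1d2 had r = 0.74 (permutation p = 0.0102, adjusted p = 0.142), and Bmal1 -0.26 (adjusted p = 0.858). Ciart stood at 2.75 to 3.59 log2 units in these 11 libraries, against 2.99 to 4.00 in high-Dbp libraries, with Dbp at 7.37 or above in the 11. In the 7 libraries with Gad2 under 4.7, 0 clock genes passed by the exact permutation test, with 4 at an unadjusted p under 0.05. Nr1d1 had r = 0.83 (exact permutation p = 0.0054, adjusted p = 0.15). With median-of-ratios scaling its r was 0.60 (exact permutation p = 0.149, adjusted p = 0.443). Of these 7 libraries 1, of the decimal series, stood apart with Bmal1 at 1.97, where the other 6 had 4.47 to 5.17. It was not apart in Bmal1 alone. Clock (3.92), Bhlhe41 (4.11), Nr1d2 (5.44), Nr1d1 (6.15), Per3 (2.79) and Ciart (2.82) were also lowest there among the 7, while its Dbp (7.02) was not. Over 80 stress genes in the same 3 sets, a family added after values were seen, 0 passed. With median-of-ratios scaling 1 did, the glucocorticoid-responsive Zbtb16 in the 7 libraries with Gad2 under 4.7, at r = 0.90 (exact permutation p = 0.000198, adjusted p = 0.0159), against r = 0.73 (adjusted p = 0.994) as reported. In the middle 38 libraries Rbm3 had r = 0.16 (permutation p = 0.329, adjusted p = 0.981) and Mt1 -0.041 (adjusted p = 0.981).

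**Figure D5:**
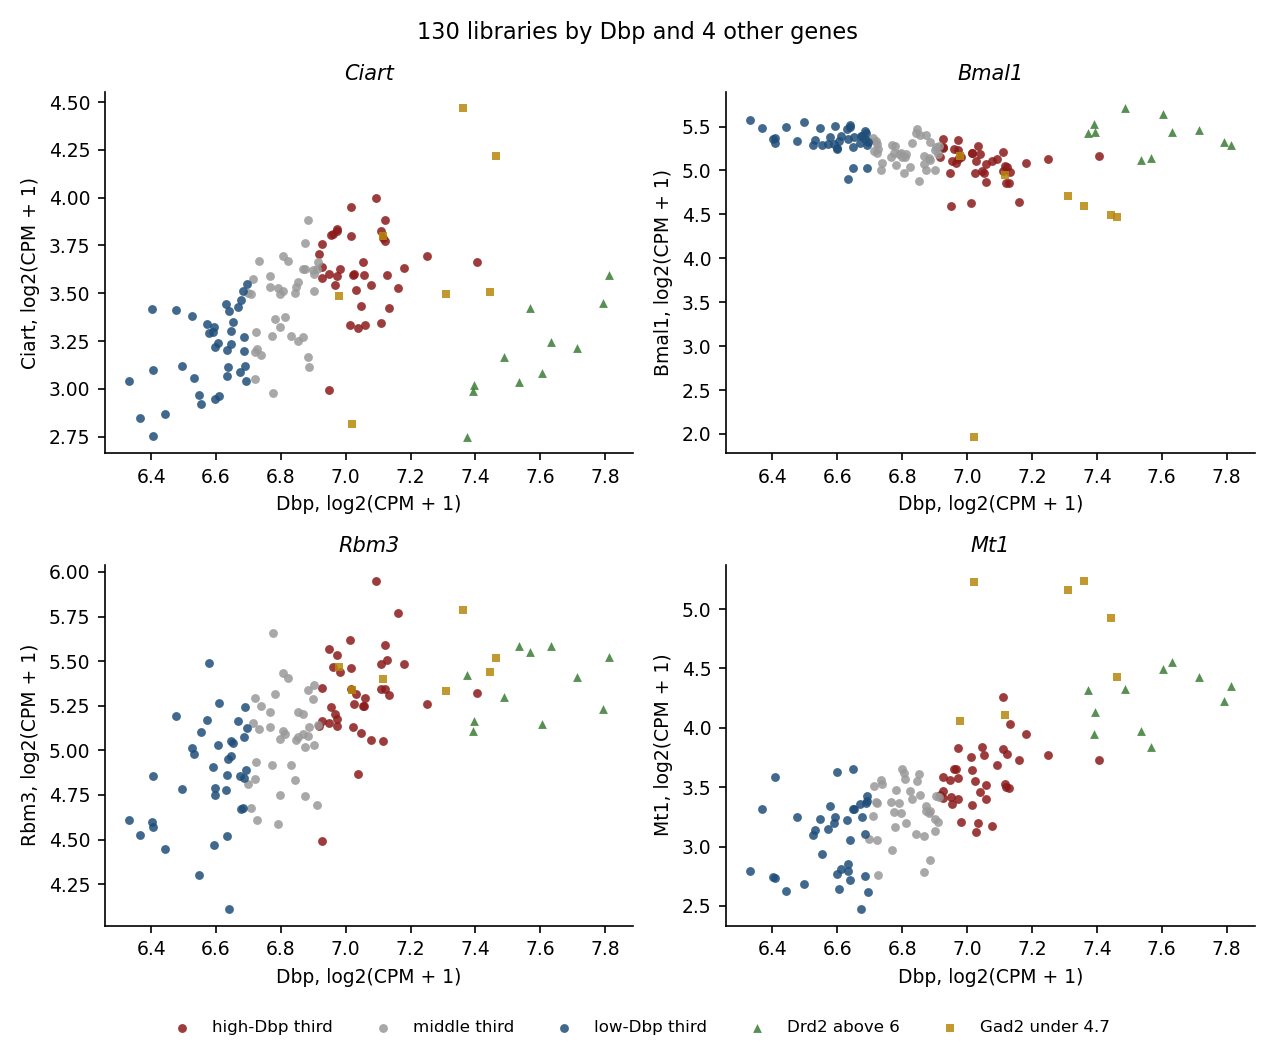
Ciart, Bmal1, Rbm3 and Mt1 (vertical axes) against Dbp (horizontal axes) in 130 libraries, all in log2(CPM + 1), by set: high-Dbp, middle and low-Dbp libraries, those with Drd2 above 6 and those with Gad2 under 4.7. Ciart is higher where Dbp is higher in the kept libraries and, at a lower level, in the 11 with Drd2 above 6. In the set with Gad2 under 4.7, 1 library has Bmal1 at 1.97 and also the lowest Ciart of that set.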

How the data were processed

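Poly(A) RNA of 130 prelimbic cortex libraries was used, and 34 of 164 labelled samples, which have no column, were not analysed here. Reads were quantified with kallisto 0.48, per the submitters' processing notes. The deposited unit is log2 of the estimated count plus 1 per gene (38354 genes), from 0 to 21.9 and not scaled for depth. Count models were not used. Values were turned back to counts, scaled to 1000000 per library, and log2 of the result plus a pseudocount of 1 was taken. Summed counts of 15.1 to 55.95, in units of 1000000, set the precision. Genes whose mean over both sides reached 1 were tested with limma 3.58.1 in R 4.3.3 (trend, two-sided, Benjamini-Hochberg over all genes tested, adjusted p under 0.05), without covariates. Correlations used 100000 permutations, exact with 7 libraries, in Python 3.11.15 with scipy 1.17.1. The script was tested on simulated data.

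The members, lists and tests were chosen with earlier results of these data known. Named genes were all clock genes, up to 4 called members of other lists in each direction, and the 12 largest rises and falls. Values of a few genes of the lists are not reported here, though the counts include them. Promoters came from the RefSeq GRCr8 table; 38278 of the table's symbols and all of their positions matched it. Alternatives were other scalings, pseudocounts, filters, covariates, sizes of the sides and sets of libraries.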

Additional observations from a re-analysis of the deposited data

How the results depend on the processing

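The count of called genes, 1194 as reported, was 511 with the identifier series as a covariate, 247 with the oligodendrocyte mean, 202 with the first component, 9 in the decimal series alone, 43 in the E21DCD series alone, 290 with 56 libraries a side, 2161 with Dbp as a continuous covariate, 660 with no filter on low values, and 494 without the 3 libraries above 0.2 on the first component, an alternative chosen after the data were seen. It stayed within 1.5 times of 1194 under the other settings run, from 846 with ranking on median-of-ratios scaled values to 1550 with 28 libraries a side. Of the 1194 genes, 502 were called with the series, 223 with the oligodendrocyte mean and 124 with the first component. Each series alone holds fewer libraries, and the cause of the drop was not tested there or under the other settings. Called clock genes, 10 as reported, were 2 in the decimal and 5 in the E21DCD series and 7 to 10 elsewhere.

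Among 79 named genes, the 62 called as reported changed sign under no setting run. Signs that turned belonged to clock genes not called. Bhlhe40 was at 0.033 with the other ranking, 0.020 with the series, 0.0038 with the summed count, 0.077 with the oligodendrocyte mean, 0.12 with the first component (adjusted p = 0.042), 0.073 in the E21DCD series, 0.014 with 28 and 0.0077 with 56 libraries a side, 0.0020 per unit of Dbp and 0.057 without the 3 libraries. With the first component Bmal2 was at 0.0063, Csnk1d at 0.0010 and Csnk1e at 0.0088. With the oligodendrocyte mean Csnk1e was at 0.0021, and with the series Cry2 at -0.00079. In the E21DCD series Bmal2 was at 0.016, Cry2 at -0.020, Csnk1e at 0.0050, Fbxl21 at 0.012 and Timeless at -0.037. In the decimal series Npas2 was at 0.014 and Tef at 0.014. Tef was at 0.0050 with 28 libraries a side and 0.015 per unit of Dbp, and Csnk1e at 0.00022 without the 3 libraries.

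With median-of-ratios scaling 1 clock gene, Bmal1, passed in the 7 libraries with Gad2 under 4.7, at r = -0.89 (exact permutation p = 0.00119, adjusted p = 0.0333), against 0 genes and r = 0.27 for Bmal1 as reported. These 7 include the library with Bmal1 at 1.97, which was also lowest among them for other clock genes, and the cause was not tested. No paired analysis was possible because the labels give no replicate numbers that the sides share.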

Other observations

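Some of the moving genes also varied together within the middle 38 libraries, which enter no comparison of the sides. For 11 genes named in the report, chosen after their values were seen, 55 pairs were correlated, with p from 100000 permutations adjusted over the pairs; 4 passed as positive and 3 as negative by Pearson's r, and 1 and 3 by Spearman's rho. The chaperone genes Hspa5 and Hsph1 had Pearson r = 0.65 (permutation p = 1e-05, the smallest possible; adjusted p = 0.00055) and Spearman's rho = 0.65, with r = 0.61 without the 2 libraries farthest from the median, 0.68 in 19 decimal and 0.67 in 19 E21DCD libraries. Rbm3 and Hsph1 had r = -0.55 (adjusted p = 0.00605) and rho = -0.53, with r = -0.48 without the 2 farthest libraries, -0.67 in the decimal and -0.40 in the E21DCD series. Nr1d1 and Nr1d2 had r = 0.45 (adjusted p = 0.0378) and rho = 0.41 (adjusted p = 0.0767). Both were negatively related to Mt2A, with r = -0.55 for Nr1d1 (adjusted p = 0.00697) and -0.50 for Nr1d2 (adjusted p = 0.0213), whereas between the sides all of these genes were higher in high-Dbp libraries. Without the 2 farthest libraries these values were -0.50 and -0.43. Cirbp and Mt1 had r = 0.44 (adjusted p = 0.0462) and rho = 0.45 (adjusted p = 0.0623). Mt1 and Mt2A had r = 0.46 (adjusted p = 0.0378) and rho = 0.39 (adjusted p = 0.104), and their r was 0.37 without the 2 farthest libraries and 0.21 in the decimal series. Pearson values here rest on 38 libraries of a narrow range of Dbp.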
